A study of Mus musculus with 18 samples.

Results

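Axon guidance ligands, their receptors and the cytoplasmic mediators of semaphorin signalling were followed through the ac4C maps of the mouse hippocampus. Members were chosen by gene name, as the semaphorins, plexins, neuropilins, ephrins, Eph receptors, netrins, netrin-Gs, Slits, Robos, DCC and UNC5 receptors and collapsin response mediator proteins (CRMPs) among the listed mRNAs. This gave 40 of the 4922 mRNAs with at least 1 listed ac4C peak, made up of 14 ligands, 21 receptors and 5 CRMPs. By family there were 8 semaphorins, 7 plexins, 2 neuropilins, 3 ephrins, 7 Eph receptors, 1 netrin, 3 DCC and UNC5 receptors, 2 Slits, 2 Robos and 5 CRMPs, and no netrin-G. The pathway column deposited with the peaks placed 34 of the 40 in axon guidance. A listed peak was needed to be a member, but neither its FE nor a difference between genotypes entered the rule.

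N4-acetylcytidine (ac4C) is an acetylated form of cytidine in RNA. It was mapped by acRIP-seq, in which RNA is fragmented, pulled down with an antibody against ac4C and sequenced beside its input and an IgG control. Hippocampi of 5xFAD mice and of wild-type (WT) mice were compared, all aged 3 months, with 3 samples of each genotype. The question of the design was which ac4C peaks of mRNAs differ at an early stage of this model of Alzheimer's disease. 5xFAD mice carry transgenes that include human APP with the Swedish, Florida and London mutations, under the murine Thy-1 promoter and on a C57BL/6J background, and the promoter drives the transgenes mainly in neurons. The methods name female mice in one place and littermates of both sexes in another, and the labels name neither sex nor animal, so p-values measure the spread between these samples. WT mice carry no transgene.

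Guidance molecules tell a growing axon where to turn. Semaphorins act through plexins, often with a neuropilin as co-receptor, ephrins through Eph receptor kinases, netrins through DCC and UNC5, and Slits through Robo receptors, while CRMPs couple semaphorin signals to microtubules. In the adult hippocampus the same families are known for their part in synapse formation, spine shape and plasticity.

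The 6 lists held 3734 to 3921 peaks per 5xFAD sample and 4151 to 4558 peaks per WT sample, without read counts, so the depth is unknown. The fold enrichment (FE) of a peak is the authors' ratio of ac4C pull-down less IgG signal to input, and it was not scaled between samples. FE values of all peaks on an mRNA were added up within each sample, and 2 of the 3 samples of a genotype had to list the mRNA for it to count there. By the terms of the study, "overlay" mRNAs had peaks in both genotypes, "AD absent" mRNAs in WT alone and "AD unique" mRNAs in 5xFAD alone. The study also kept only mRNAs found by its RNA-seq. That filter was not applied here, and the counts below differ from those of the study. The absence of a listed peak does not show that a sample had no enriched reads. As the tissue is bulk, fewer cells of a type and less RNA per cell cannot be told apart. Of 28 marker genes of hippocampal neurons, glia and endothelium, 19 had a listed peak, among them 5 of 8 for excitatory neurons and 4 of 4 for astrocytes. Prox1, Wfs1, Calb1, Gad1, Pvalb, Mog, Csf1r, P2ry12 and Flt1 had none. The summed FE of the markers was 427 to 585 in 5xFAD samples and 1789 to 2666 in WT samples. Of the 7 overlay markers, Gfap of astrocytes, Tmem119 of microglia and Mbp of oligodendrocytes were called lower in 5xFAD and none higher. Over all overlay mRNAs 32.3% were called lower and 20.8% higher, and most called members were lower too. Of the other markers, 7 were AD absent and 4 AD unique. The latter were Neurod6 of excitatory neurons, Aldh1l1 of astrocytes, Mobp of oligodendrocytes and Pecam1 of endothelial cells. The part of the markers in the values below was not tested. The endogenous mouse App gene had FE values of 46.6, 24.2 and 38.0 in the 3 WT samples and no listed peak in 5xFAD, and Thy1, whose promoter drives the transgenes, likewise had peaks in WT alone.

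Every 5xFAD sample listed fewer guidance mRNAs and a lower summed FE on them than any WT sample. With 3 samples against 3, an exact permutation test cannot go below p = 0.1, so these totals are given as values. Members had 34, 34 and 34 peaks in the 5xFAD samples and 43, 50 and 51 in the WT samples. These lay on 24, 23 and 23 members in 5xFAD and on 28, 31 and 32 in WT. The ranges did not overlap, and members made up 0.867% to 0.911% of the listed peaks of a 5xFAD sample and 1.04% to 1.14% of those of a WT sample. The median FE of the member peaks was 9.75, 7.47 and 9.99 in 5xFAD and 58.2, 51.4 and 22.9 in WT, beside medians over all peaks of 20.0 to 22.6 in 5xFAD and 23.2 to 24.2 in WT. Summed over all members, FE was 2291, 1160 and 1802 in 5xFAD and 6731, 8765 and 8061 in WT, over 5707 to 6091 bases of peak in 5xFAD and 5836 to 8390 in WT. Ligands accounted for 448, 398 and 359 of these sums in 5xFAD and for 2917, 3748 and 2938 in WT. Receptors accounted for 1155, 729.8 and 1081 in 5xFAD and for 3127, 4180.2 and 4197 in WT. The sums of the CRMPs overlapped, with 689, 32.3 and 362 in 5xFAD and 687, 837 and 926 in WT, and so did those of the Eph receptors, with 776, 417 and 788 in 5xFAD and 274, 572 and 353 in WT. Single members weighed heavily in the WT totals, with mean FE values of 1494 for Dcc and 1169 for Efna1. No sum over all mRNAs is given beside these totals, and the sums of the marker genes were also lower in 5xFAD. The deposited FDR was 100% for 47.1% to 52.9% of the member peaks in 5xFAD samples, against 23.0% to 26.2% of all peaks there, and for 14.0% to 15.7% in WT samples, against 20.5% to 22.6% of all peaks.

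Of the 40 members, 16 were overlay, 17 AD absent and 7 AD unique. Among all 4493 mRNAs counted for a genotype, 24.9% were overlay, 40.4% AD absent and 34.6% AD unique, beside 40%, 42.5% and 17.5% of the members. Of all 40 members, 9 were listed for every WT sample and for no 5xFAD sample, beside 29.3% of the 4493 mRNAs. Likewise 5 of the 40 were listed for every 5xFAD sample and no WT sample, beside 25.6% of the 4493. Without WT replicate 2 the number of AD absent members was 11.

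**Figure D1:**
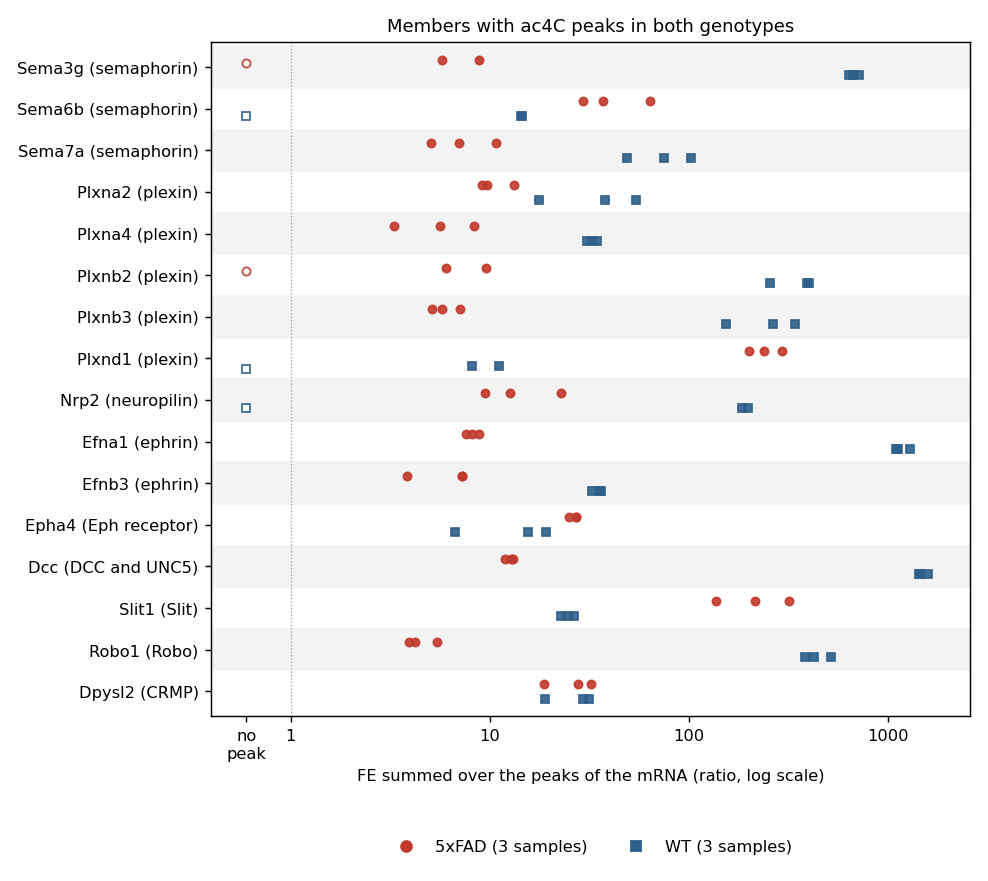
Summed FE (x axis, ratio on a log scale) of the 16 members with peaks in both genotypes, a point per sample, with 5xFAD circles above WT squares and open symbols for samples with no listed peak. Dcc, Efna1, Sema3g and Robo1 were at most 13.1 in every 5xFAD sample and at least 385 in every WT sample, while Plxnd1 and Slit1 were higher in 5xFAD.

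The 16 overlay members were tested with limma in the fit over all 1121 overlay mRNAs, on log2(FE + 1), samples with no peak entering at FE 0. Calls needed a 2-fold difference and a Benjamini-Hochberg adjusted p under 0.05, and by this 10 members were lower in 5xFAD mice, Dcc, Efna1, Efnb3, Plxna2, Plxna4, Plxnb2, Plxnb3, Robo1, Sema3g and Sema7a. Over all overlay mRNAs 32.3% were called lower. Plxnd1 and Slit1 were called higher, beside 20.8% of all overlay mRNAs, and Dpysl2, Epha4, Nrp2 and Sema6b were not called. In 10 members all 3 5xFAD values lay below all 3 WT values, and in 4 all lay above, beside 39.4% and 28.5% of the overlay mRNAs. The median log2 fold change was -2.38 over the 16 members and -0.47 over all overlay mRNAs. With each sample centred on its median, every log2 fold change was 0.71 higher, the median over all overlay mRNAs was 0.24, 329 overlay mRNAs were called higher and 292 lower, against 233 and 362 without centring, and of the members 3 were called higher and 9 lower. In 9 of the 10 members called lower, every 5xFAD peak had an FDR of 100%, and in all 10 at least 1 WT peak had a lower FDR. With only the peaks of an FDR under 100%, a setting chosen after seeing the data, 1 member was called lower and 1 higher. Leaving out a sample gave 7 to 11 members called lower and 1 to 3 higher, beside 301 to 382 and 188 to 231 of all overlay mRNAs. Only 1 member was called higher without WT replicate 3, when Plxnd1 was no longer an overlay mRNA. There were 7 called lower without 5xFAD replicate 2 or 3, when Sema3g and Plxnb2 were not overlay mRNAs.

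**Figure D2:**
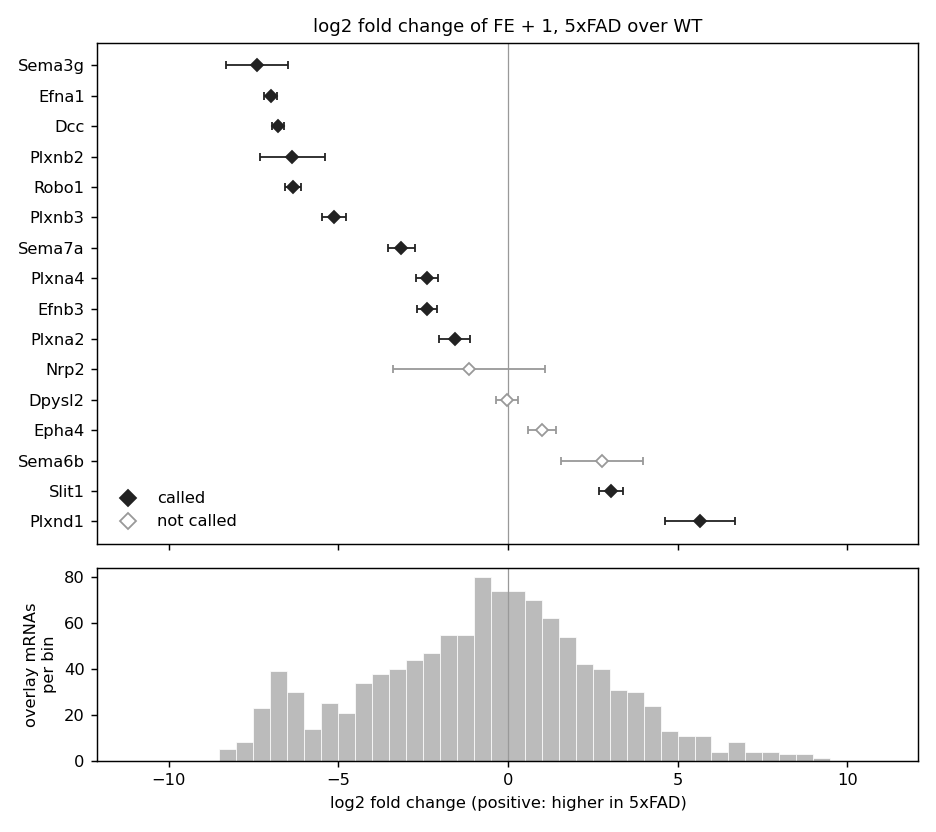
Top, log2 fold change of FE + 1 in 5xFAD over WT (x axis) for the 16 overlay members, with the standard error of the limma fit as bars, filled where called. Bottom, number of overlay mRNAs per bin of the same quantity over all 1121, with Sema3g at -7.39 and Plxnd1 at 5.66 as the ends of the members' range.

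Semaphorins are secreted or membrane-bound ligands that mostly repel axons. Sema3g, a secreted class 3 semaphorin that binds neuropilin-2, had the largest negative log2 fold change among the overlay members. Its FE was 5.74 and 8.80 in 5xFAD replicates 2 and 3, with no peak in replicate 1, against 638, 720.3 and 671 in WT. The groups did not overlap, and the WT peaks ranked 77 to 101 among the 2750 to 2938 mRNAs of their samples by strongest peak. The log2 fold change was -7.39 ± 0.91 (SE, limma, adjusted p = 0.00139), or -6.38 without 5xFAD replicate 1 (adjusted p = 0.00013). In both genotypes the peak lay in the same stretch of coding sequence in exon 11, with bases 1174 to 1375 of 2343 common to all 5 peaks, and the FDR was 100% in both 5xFAD samples. Sema7a, a membrane-anchored semaphorin that promotes axon growth through integrins, had FE values of 10.8, 6.99 and 5.07 in 5xFAD and 75.1, 103 and 49.0 in WT. Every 5xFAD value was lower than every WT value, with a log2 fold change of -3.14 ± 0.40 (SE, limma, adjusted p = 0.00159). Its strongest WT peaks lay in exons 2 and 3, where 5xFAD samples had none, and 5xFAD samples had a peak in exon 10, where WT had none, while a weak peak in exon 11 was shared, with FE values of 6.14, 4.22 and 3.04 in 5xFAD and 6.29, 11.52 and 9.67 in WT.

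Sema6b, a transmembrane semaphorin that acts through class A plexins, had FE values of 29.6, 64.2 and 37.1 in 5xFAD and 14.6 and 14.4 in WT replicates 1 and 3, with no peak in WT replicate 2. All 5xFAD values were above all WT values, but the spread left an adjusted p of 0.106 (limma, log2 fold change 2.77 ± 1.20). The positions were apart, with 5xFAD peaks in exon 15 and WT peaks around the start codon in exon 2. Without WT replicate 2, the log2 fold change was 1.45 and the adjusted p 0.0306 (limma).

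The remaining semaphorins had peaks in a single genotype, so their values are given with no test. Sema3c, known for attracting cortical axons, had FE values of 136, 140.4 and 94.6 in WT, in its 3′ untranslated region (UTR), and no peak in 5xFAD. Sema3e, the ligand of plexin-D1, had values of 192, 225 and 206 in WT, in exons 4 and 5, and no peak in 5xFAD. Sema5a, a transmembrane semaphorin with thrombospondin repeats, had 234, 674 and 310.3 in WT and no peak in 5xFAD. In the other direction, Sema5b, its close relative, had 53.9, 55.1 and 97.9 in 5xFAD and none in WT, and Sema4a, a semaphorin also known from immune cells, had 8.31, 11.3 and 11.9 in 5xFAD, each at an FDR of 100%, and none in WT. Sema5a and Sema5b thus had their peaks in opposite genotypes. The Sema5b peaks met at the junction of exons 9 and 10 with almost equal FE, 26.8 and 27.1, 27.6 and 27.6, and 48.8 and 49.1. Its sum therefore counts both sides of the junction. The Sema4a peak is deposited as 5′UTR by a UCSC transcript, whereas in GENCODE vM21 139 of its 196 bases are coding in several Sema4a transcripts. One of the Sema5a peaks, found in WT replicates 2 and 3 and deposited as a stop codon peak of a UCSC transcript, spans 204 bases, of which 66 are coding in a protein-coding GENCODE transcript and all lie in retained-intron transcripts.

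Ephrins are cell-bound ligands, and those of class A hang on the membrane by a lipid anchor. Efna1 had FE values of 8.16, 7.58 and 8.80 in 5xFAD and 1129.8, 1285 and 1093 in WT, the highest of any single peak among the members. No 5xFAD value came near the WT range, and the WT peaks ranked 20, 13 and 31 in their samples. The log2 fold change was -6.99 ± 0.19 (SE, limma, adjusted p = 1.54e-05). The peak had identical ends in all 6 samples, the 195 bases of exon 1 (chr3:89279451-89279645, mm10), and its score, 10 times the negative log10 of the peak's p, was 220 to 277 in 5xFAD and 3100.00 in WT, a value that 126 of the 246 member peaks share and that therefore does not rank them. Efnb3, a transmembrane ephrin of the midline and of dendritic spines, had FE values of 3.85, 7.24 and 7.24 in 5xFAD and 35.9, 36.4 and 32.8 in WT. The groups were apart, with a log2 fold change of -2.38 ± 0.29 (SE, limma, adjusted p = 0.00125). Its 5xFAD peak filled exon 2 and its WT peak began at the first base of exon 3, so that they met at the junction without sharing a base. Efna3, another class A ephrin, had 15.2, 17.2 and 45.1 in 5xFAD and no peak in WT, at bases 752 to 1037 counted from the start codon of a coding sequence of 693 bases, and so past the stop codon.

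The stretches that carry these ligand peaks are shown because in Efna1 and Sema3g the same bases had FE values far apart, while in Efnb3 the peaks lay on neighbouring exons. All are coding sequence read from RefSeq's GRCm38.p6, the build of the files, 5′ to 3′ on the mRNA strand, and of Efna1 only the coding part of its peak. Capitals mark the longest run of triplets that begin with C (CNN), a pattern described in ac4C regions of human mRNA.
Sema3g, exon 11 (chr14:31223319-31223520, plus strand): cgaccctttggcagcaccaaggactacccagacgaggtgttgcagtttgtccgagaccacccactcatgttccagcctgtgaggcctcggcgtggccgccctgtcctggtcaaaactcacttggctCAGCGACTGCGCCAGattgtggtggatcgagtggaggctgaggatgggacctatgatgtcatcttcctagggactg
Efna1, exon 1 (chr3:89279451-89279542, minus strand): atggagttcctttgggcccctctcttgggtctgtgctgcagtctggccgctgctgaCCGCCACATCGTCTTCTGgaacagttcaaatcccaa
Efnb3, exon 2 (chr11:69557200-69557492, minus strand): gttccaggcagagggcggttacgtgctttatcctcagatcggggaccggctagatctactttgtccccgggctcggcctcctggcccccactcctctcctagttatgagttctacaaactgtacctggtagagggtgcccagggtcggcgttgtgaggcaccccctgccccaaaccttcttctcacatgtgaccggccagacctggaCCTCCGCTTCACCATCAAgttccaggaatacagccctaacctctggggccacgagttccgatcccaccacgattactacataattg
Efnb3, exon 3 (chr11:69556911-69556998, minus strand): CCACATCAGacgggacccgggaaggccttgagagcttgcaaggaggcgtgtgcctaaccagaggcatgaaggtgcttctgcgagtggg

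Netrins attract or repel axons by way of DCC and UNC5. Ntn4, a netrin of basement membranes, was the only netrin listed, and RefSeq has 4 protein-coding genes named Ntn followed by a digit. Its FE was 222.1, 238 and 239 in WT, with no peak in 5xFAD. The 189 bases of its peak matched exon 5 from end to end.

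Slits are large secreted repellents. Slit1 was called higher in 5xFAD, where its FE was 318, 214 and 137, against 26.6, 24.7 and 22.9 in WT. The lowest 5xFAD value was above the highest WT value, and the log2 fold change was 3.04 ± 0.35 (SE, limma, adjusted p = 0.00114). None of its peaks was shared. The strong 5xFAD peaks lay on both sides of the junction of exons 25 and 26, with FE values of 232, 132 and 75.1 in exon 25 and 81.1, 72.1 and 56.7 in exon 26, and the WT peak filled exon 8. Slit3, which is also expressed outside the brain, had 213, 301 and 204 in WT and a single peak of 8.30 in 5xFAD replicate 2, on another exon. Slit1 and Slit3 therefore stood on opposite sides, and Slit2 had no listed peak.

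The Slit1 stretches show the separate exons in which the genotypes had peaks, and the Ntn4 stretch the exon of its WT peak, with capitals as above. The exon 25 and 26 stretches are those of the 5xFAD peaks, the exon 8 and Ntn4 stretches those of the WT peaks.
Slit1, exon 25 (chr19:41624498-41624558, minus strand): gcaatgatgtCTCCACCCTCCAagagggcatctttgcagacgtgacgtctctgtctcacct
Slit1, exon 26 (chr19:41616745-41616828, minus strand): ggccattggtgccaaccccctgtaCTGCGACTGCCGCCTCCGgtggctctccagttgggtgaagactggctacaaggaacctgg
Slit1, exon 8 (chr19:41650677-41650840, minus strand): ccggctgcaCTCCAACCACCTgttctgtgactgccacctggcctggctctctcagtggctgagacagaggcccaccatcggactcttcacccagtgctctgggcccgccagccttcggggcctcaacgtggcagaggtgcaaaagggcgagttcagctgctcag
Ntn4, exon 5 (chr10:93710478-93710666, plus strand): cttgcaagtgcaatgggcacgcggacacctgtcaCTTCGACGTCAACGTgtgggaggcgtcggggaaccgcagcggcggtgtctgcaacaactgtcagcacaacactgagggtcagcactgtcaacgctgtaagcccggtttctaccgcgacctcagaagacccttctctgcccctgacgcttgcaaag

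Plexins are the receptors of semaphorins and signal through a GTPase-activating domain inside the cell. Of the 7 plexins, 5 were overlay, 4 of them called lower and 1 called higher. Plxnb3, a receptor of Sema5a found in oligodendrocytes and on the X chromosome, had FE values of 5.13, 7.12 and 5.79 in 5xFAD and 341, 155 and 266 in WT. The groups were apart by a log2 fold change of -5.12 ± 0.36 (SE, limma, adjusted p = 0.000194), with the main WT peak in exon 2 and the 5xFAD peak in exon 14. Plxnb2, a receptor of class 4 semaphorins, had 6.04 and 9.55 in 5xFAD replicates 2 and 3, no peak in replicate 1, and 257, 394 and 401 in WT. Its log2 fold change was -6.36 ± 0.95 (SE, limma, adjusted p = 0.0030), or -5.32 without 5xFAD replicate 1, the positions again being apart, with exon 30 in 5xFAD and mainly exon 24 in WT.

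Plxna4, the plexin of sympathetic and hippocampal mossy fibre axons, had 3.30, 5.60 and 8.38 in 5xFAD, around its start codon, and 30.7, 34.6 and 32.5 in WT, in its 3′UTR. The WT values were all higher, with a log2 fold change of -2.38 ± 0.34 (SE, limma, adjusted p = 0.00233). Plxna2, a receptor of transmembrane semaphorins on mossy fibres, had 9.74, 9.12 and 13.3 in 5xFAD and 54.3, 17.6 and 38.0 in WT. The groups did not overlap, but the call (log2 fold change -1.57 ± 0.46, limma, adjusted p = 0.0347) was lost without any 1 of 5 of the 6 samples, all but WT replicate 2, with adjusted p from 0.0513 to 0.084. With median centring it was lost as well (log2 fold change -0.85, limma, adjusted p = 0.228).

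Plxnd1, the receptor of Sema3e, moved the other way. Its FE was 295, 239 and 202 in 5xFAD and 11.2 and 8.12 in WT replicates 2 and 3, with no peak in WT replicate 1. The groups were apart, with a log2 fold change of 5.66 ± 1.02 (SE, limma, adjusted p = 0.00614), or 4.53 without WT replicate 1 (adjusted p = 0.000505). The strong 5xFAD peaks met at the junction of exons 20 and 21 with almost equal FE, 139 and 139, 112 and 113, and 95.4 and 96.1 in the 3 samples, so that the sum counts both sides of the junction. A further 5xFAD peak in exon 1 had 17.3, 14.2 and 10.4, at an FDR of 100%. Its WT peak lay in exon 15 with an FDR of 100%. Plxnd1 thus had its high FE in 5xFAD, whereas its ligand Sema3e had peaks in WT alone. Of the AD absent plexins, Plxna1, a co-receptor with neuropilins, had 9.99 in 5xFAD replicate 1 and 81.0, 69.7 and 32.3 in WT, and Plxnb1, the receptor of Sema4d, had 18.9 and 15.1 in WT replicates 2 and 3 and no peak in 5xFAD. The Plxnd1 stretches are shown as the coding sequence with the highest FE of any plexin in 5xFAD (exons 20 and 21) and as the separate WT stretch (exon 15), with capitals as above.
Plxnd1, exon 20 (chr6:115965857-115965933, minus strand): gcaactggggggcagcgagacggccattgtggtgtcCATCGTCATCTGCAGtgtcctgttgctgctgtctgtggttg
Plxnd1, exon 21 (chr6:115964121-115964183, minus strand): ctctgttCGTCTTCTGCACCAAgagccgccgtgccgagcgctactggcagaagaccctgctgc
Plxnd1, exon 15 (chr6:115967749-115967888, minus strand): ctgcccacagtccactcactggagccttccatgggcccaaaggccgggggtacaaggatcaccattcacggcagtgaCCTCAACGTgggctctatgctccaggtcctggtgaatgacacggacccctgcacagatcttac

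Neuropilins hold secreted semaphorins for the plexins. Nrp2, the co-receptor of Sema3f and Sema3g, had FE values of 9.51, 12.6 and 22.9 in 5xFAD, around its start codon, and 198 and 186 in WT replicates 1 and 3, in exons 6 and 7, with no peak in WT replicate 2. With that sample at 0 the groups overlapped and the log2 fold change of -1.15 ± 2.25 missed the threshold (SE, limma, adjusted p = 0.698). Without WT replicate 2, the log2 fold change was -3.68 and the adjusted p 0.00223 (limma). Nrp1, the co-receptor of Sema3a, had 8.72, 16.5 and 18.1 in WT and no peak in 5xFAD.

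Eph receptors are the kinases that ephrins bind, and 7 had a listed peak. Epha4, a receptor on hippocampal spines that binds ephrin-A3 of astrocytes, had FE values of 24.95, 27.0 and 27.2 in 5xFAD, in its 3′UTR, and 6.68, 19.3 and 15.5 in WT, in exons 2 and 5. All 5xFAD values were higher, with a log2 fold change of 1.00 ± 0.41 that missed the threshold (SE, limma, adjusted p = 0.0931). With the highest FE of its peaks in place of the sum, the log2 fold change was 1.52 and the adjusted p 0.00318, and without WT replicate 2 they were 1.28 and 0.0427 (limma). The mean FE of its peaks and median centring also gave a call, while without WT replicate 1 the log2 fold change was 0.58 and the adjusted p 0.0819. Ephb2, a regulator of NMDA receptors at excitatory synapses, had 332, 385 and 749 in 5xFAD and a single peak of 3.55 at the same bases in WT replicate 3. It was counted as AD unique, and its peak lay 7526 to 7944 bases from the start codon, in the 3′UTR of ENSMUST00000105845. Epha6 had 4.20, 5.08 and 11.7 in 5xFAD and no peak in WT.

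The other Eph receptors were AD absent. Ephb6, a receptor without kinase activity, had 257, 367 and 224 in WT and no peak in 5xFAD. Epha7, known for shaping dendrites and spines, had 10.7, 13.8 and 7.37 in WT and no peak in 5xFAD. Ephb4, the receptor of ephrin-B2 on veins, had 8.40 and 9.38 in WT replicates 2 and 3 alone, both at an FDR of 100%. Epha10, a receptor with an inactive kinase domain, had 414 in 5xFAD replicate 1 and 164 and 92.7 in WT replicates 2 and 3, on different transcripts, so its place among the AD absent members rests on the number of samples and not on the level.

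**Figure D3:**
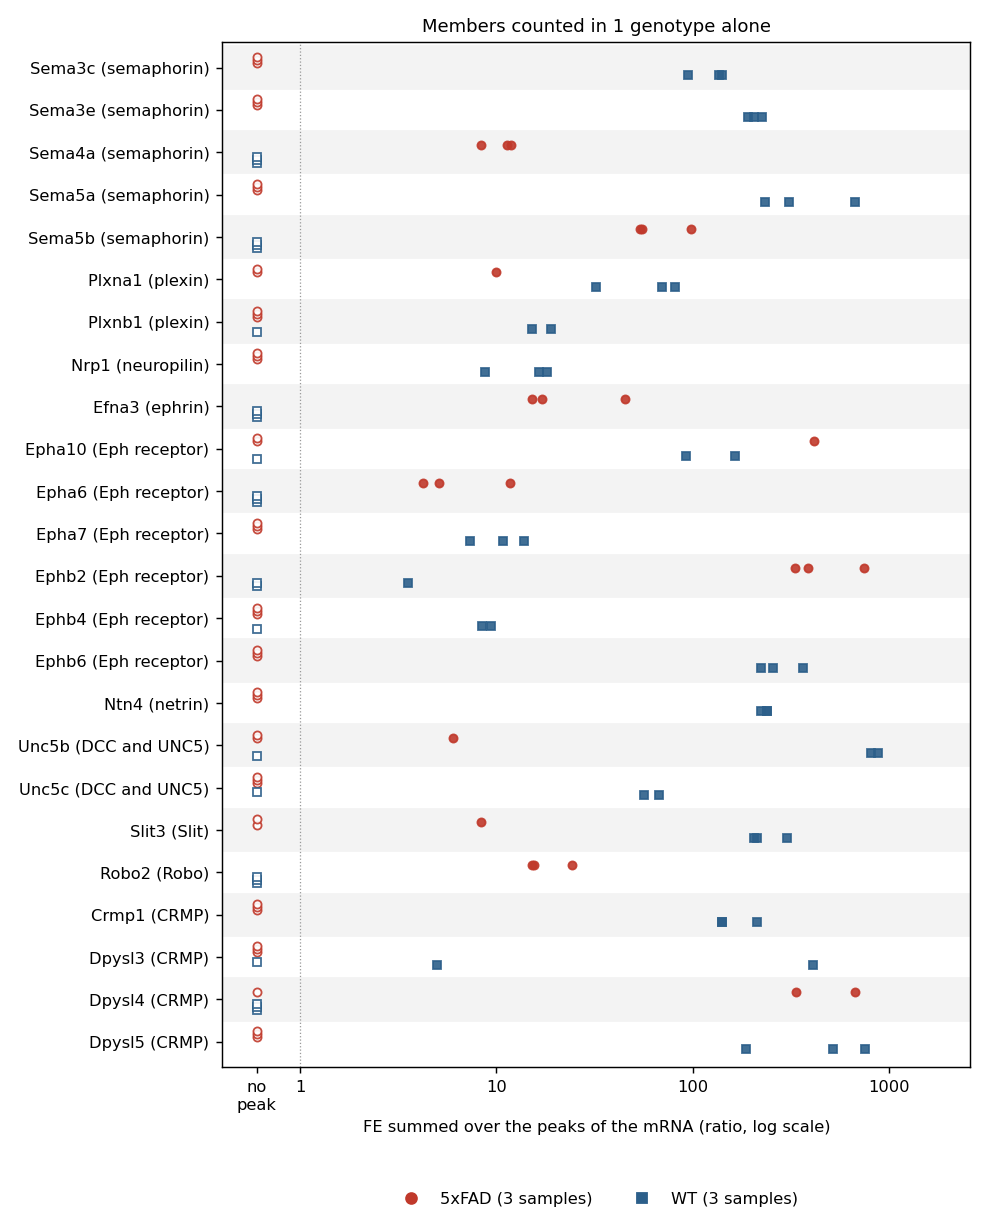
Summed FE (x axis, ratio on a log scale) of the 24 members counted in a single genotype, a point per sample, with 5xFAD circles above WT squares and open symbols for samples with no listed peak. Ephb2 reached 749 and Dpysl4 669.7 in 5xFAD, and Unc5b 875 and Dpysl5 754 in WT.

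DCC and the UNC5 proteins are the receptors of netrin-1, DCC mediating attraction and UNC5 repulsion. Dcc had FE values of 11.9, 13.1 and 12.7 in 5xFAD and 1429, 1600.3 and 1453 in WT. The genotypes were far apart with little spread within each, and the log2 fold change was -6.78 ± 0.18 (SE, limma, adjusted p = 1.54e-05). In WT the peaks lay on both sides of the junction of exons 25 and 26 with almost equal FE, 713 and 716, 800.0 and 800.3, and 725 and 728, so the sum is close to 2 times the FE at the junction. In 5xFAD the exon 26 peak was present in all 3 samples, with 6.53, 7.35 and 6.71, and the exon 25 peak in replicates 1 and 2, with 5.37 and 5.74. Replicate 3 had a peak of 6.02 in exon 18 instead, and all 5xFAD peaks of Dcc had an FDR of 100%. Peaks of a sample met at an exon junction in 10 members, Dcc, Nrp1, Nrp2, Plxna2, Plxnd1, Sema3e, Sema5b, Sema7a, Slit1 and Slit3. Their sums count both sides. With peaks that meet at a junction counted once, a setting added after seeing the data, the same numbers of members, 10 and 2, were called lower and higher. Unc5b, also an endothelial receptor, had a single peak of 6 in 5xFAD replicate 1 and 809.9 and 875 in WT replicates 2 and 3, with none in WT replicate 1, across its stop codon. Unc5c, whose variants have been linked to Alzheimer's disease in humans, had 67.5 and 56.2 in WT replicates 1 and 2 and no peak in 5xFAD.

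Robo receptors bind Slits. Robo1 had FE values of 4.20, 5.42 and 3.93 in 5xFAD and 385, 425 and 519 in WT. The values did not overlap, with a log2 fold change of -6.33 ± 0.23 (SE, limma, adjusted p = 2.04e-05). The region was the same in both genotypes (chr16:72742876-72743156, mm10) and is deposited as 3′UTR of a UCSC transcript, but in GENCODE vM21 it overlaps no coding or UTR feature of Robo1, only an exon of a retained-intron transcript of the gene. Robo2, another receptor of Slits, had 24.4, 15.2 and 15.5 in 5xFAD, in exon 6, and no peak in WT, so that the receptors, like the Slits, had their higher FE in opposite genotypes.

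CRMPs bind tubulin and pass on semaphorin signals. Dpysl2, which encodes CRMP2 and is abundant in axons, had FE values of 18.8, 32.3 and 27.9 in 5xFAD and 19.0, 29.4 and 31.6 in WT. The ranges overlapped almost fully, and the log2 fold change was -0.02 ± 0.32 (SE, limma, adjusted p = 0.973). Part of its peaks were still apart, since exon 10 had peaks in all 3 5xFAD samples and exon 11 in all 3 WT samples, while the region past the stop codon was shared, with 13.03, 20.11 and 16.3 in 5xFAD and 15.6 and 17.0 in WT replicates 2 and 3. Crmp1, a partner of CRMP2 in Sema3a signalling, had 142, 212 and 141 in WT and no peak in 5xFAD. Dpysl5, which encodes CRMP5, had 521, 187 and 754 in WT and no peak in 5xFAD. Dpysl4 had 669.7 and 334 in 5xFAD replicates 1 and 3 and no peak in WT. Dpysl3 had 5.00 and 409 in WT replicates 1 and 2, on neighbouring exons, and no peak in 5xFAD, so its place among the AD absent members joins different peaks.

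Few of the member regions were shared. Peaks that overlapped by at least 1 base were merged into 89 regions, of which 78 were called in a genotype, 26 in 5xFAD alone, 45 in WT alone and 7 in both. The shared ones were 2 on Dcc and 1 each on Dpysl2, Efna1, Robo1, Sema3g and Sema7a. Over all mRNAs 6.26% of the called regions were called in both genotypes, beside 8.97% here, and 39.2% of the overlay mRNAs had a shared region, beside 6 of the 16 members. In 5 of the 7 shared regions the mean FE was over 10 times lower in 5xFAD, beside 39.8% of all shared regions, and in none was it over 10 times higher, beside 10.3%. Peaks with identical ends in at least 2 samples of each genotype were found for Efna1 and for exon 25 of Dcc.

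**Figure D4:**
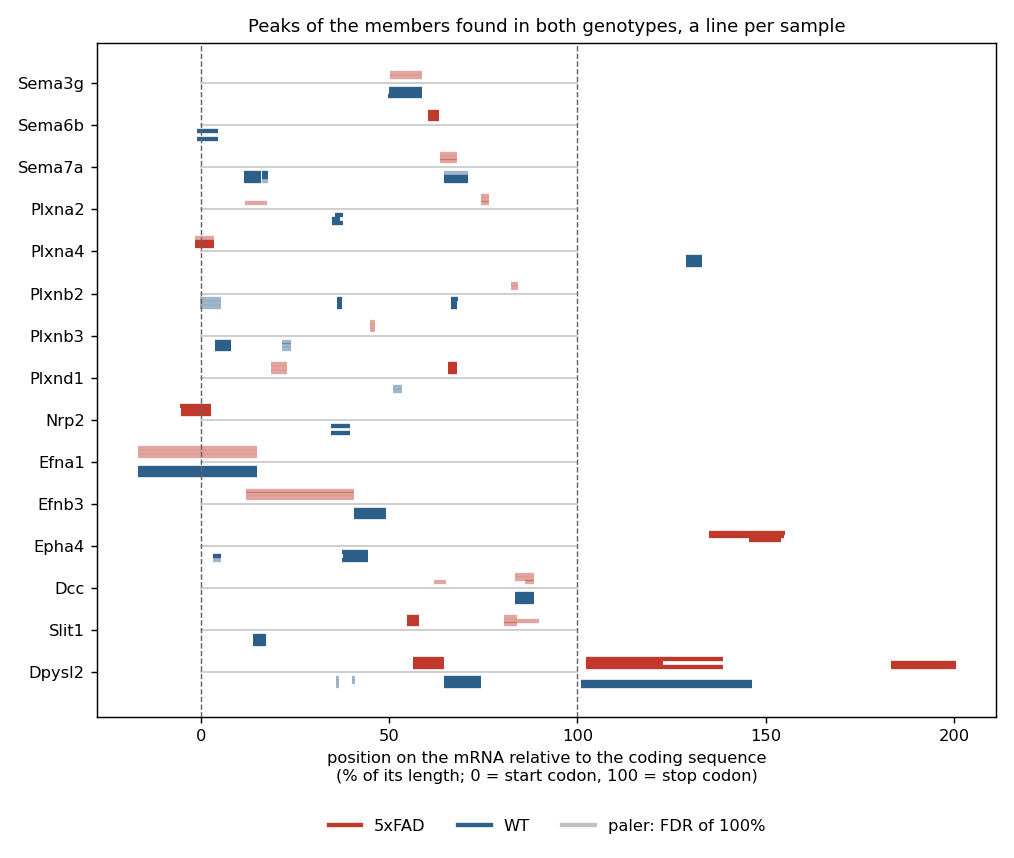
Peaks of 15 of the 16 overlay members along their mRNA (x axis, % of the length of the coding sequence, 0 for the start codon and 100 for the stop codon), a line per sample, with 5xFAD above WT for each gene and paler lines for an FDR of 100%. Robo1 has no position here. Peaks of both genotypes share a stretch in Sema3g, Sema7a, Efna1, Dcc and Dpysl2.

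By the deposited labels, 70.6% of the 102 member peaks in 5xFAD and 80.6% of the 144 in WT lay in the coding sequence, beside 58.3% and 60.2% of all peaks of the genotypes. The 5′UTR held 2.94% and 0%, the start codon 8.82% and 6.94%, the stop codon 6.86% and 4.17% and the 3′UTR 10.8% and 8.33% of the member peaks in 5xFAD and WT. Member regions had a median of 29.6% C on the mRNA strand (quartiles 25.6% and 32.7%) over a median length of 129 bases, beside 26.2% over 159 bases in all regions. The pattern CNNCNNCNNCNN was searched in the central 100 bases of regions at least that long. On the mRNA strand it was found in 22 of 55 member windows, or 40%, beside 42.9% of the 5800 windows of all regions, and on the other strand in 17, or 30.9%, beside 40.5%. In the coding part of member peaks C stood at the third codon position, which pairs at the wobble base of the tRNA, in 39.2% of 3304 codons, beside 35.6% over the whole coding sequences of the same transcripts. For peaks of all mRNAs these shares were 31.2% and 29.5%. These shares are descriptions, as neighbouring codons and regions of a gene are not independent.

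Partners in the pathway ranged from further ligands, receptors and adhesion molecules to GTPases and their regulators, kinases and cytoskeletal effectors. They were looked up in a list of 151 genes written after the axon guidance pathway, without the members. Of these, 75 had a listed peak, 23 were overlay, 8 were called lower in 5xFAD and 3 higher, and the median log2 fold change of the 23 was -0.17, beside 32.3% called lower, 20.8% higher and a median of -0.47 over all overlay mRNAs. Those called lower were Trio, Tiam1, Arhgef12 and Arhgap32, which regulate small GTPases, Mical2 and Mical3, which oxidise actin below plexins, the Hedgehog co-receptor gene Cdon and Flrt1, of a family that binds UNC5 proteins and latrophilins. Those called higher were L1cam, a neural adhesion molecule, Ptprs, a receptor phosphatase for proteoglycans, and Ssh2, a cofilin phosphatase. Cdon had 4.44, 7.33 and 8.10 in 5xFAD and 777.2, 957 and 774 in WT, and the groups were far apart (log2 fold change -6.81 ± 0.28, limma, adjusted p = 3.35e-05). Flrt1 had 6.63 and 6.67 in 5xFAD replicates 1 and 2 and 746, 557 and 734 in WT, with a log2 fold change of -7.44 ± 0.88 (limma, adjusted p = 0.00122), or -6.46 without 5xFAD replicate 3. L1cam had 42.2, 49.5 and 41.1 in 5xFAD and 2.57, 2.82 and 1.92 in WT, with all 5xFAD values above (log2 fold change 3.72 ± 0.21, limma, adjusted p = 9.72e-05). Ptprs had 107, 136 and 118 in 5xFAD and 34.0, 31.9 and 35.5 in WT, with a log2 fold change of 1.80 ± 0.20 (limma, adjusted p = 0.000955) that fell under the 2-fold limit, at 0.92, when the highest peak replaced the sum. Arhgef12 had 5, 2.79 and 2.08 in 5xFAD and 46.9, 76.3 and 76.9 in WT and was 16.0-fold lower, with an SE of 0.37 on the log2 scale (limma, adjusted p = 0.000509). The calls of Mical3 (log2 fold change -3.76 ± 1.16, adjusted p = 0.0404) and Ssh2 (1.64 ± 0.48, adjusted p = 0.0346) were each lost without some samples, Mical3 without any 1 WT sample (adjusted p 0.0765 to 0.0824) and also with the highest FE (0.0864), the mean FE (0.221), median centring (0.0643), a pseudocount of 0.1 (0.117), joined junctions (0.0767) and peaks of an FDR under 100% (0.0596), and Ssh2 without 5xFAD replicate 2 or 3 or WT replicate 1 or 3 (0.0624 to 0.0731, all limma) and with a pseudocount of 10, at a log2 fold change of 0.89.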

How the data were processed

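Peaks of ac4C were analysed in 3 hippocampus samples of 5xFAD mice and 3 of WT mice. Per the study's methods, the authors called peaks in each sample against input with MACS, removed those overlapping IgG peaks and kept exons of protein-coding genes, on mm10. The submitters' processing notes name FastQC, cutadapt 1.9.3 and HISAT2 2.04. The deposited fold enrichment of a peak is the authors' ratio of pull-down less IgG to input. The deposited FDR is in percent (20.15 to 100), and the deposited score is the authors' 10 times the negative log10 of the peak p. The study's methods state a cut at an FDR-adjusted p under 0.05. By the deposited FDR no listed peak met that cut, and the reason is not known. None of these was recomputed, and other columns were used only for position, transcript and pathway. The lists give no read counts, so their depth and the precision it sets are unknown.

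FE was added per mRNA and sample, and log2(FE + 1) of the 1121 overlay mRNAs was fitted with limma 3.58.1 (R 4.3.3, lmFit and eBayes) and adjusted by Benjamini-Hochberg. The code was tested on simulated data. Fold changes are on the log2(FE + 1) scale and understate those of low values. Regions were merged at 1 base of overlap, read from GRCm38.p6 with samtools 1.23.1 and placed on RefSeq and GENCODE vM21 transcripts, and 6.55% of the peaks had no mRNA position. Members and lists were chosen with earlier results of these data known. Values were due by rule for overlay members, for members with a shared region, for up to 3 members per family listed in every sample of a single genotype, for up to 4 called partners per direction and for genes of the transgenes, of which not all are reported here; those of the other members were added to account for all. The alternatives were other pseudocounts, the highest or mean FE per mRNA, median centring, stricter peaks or samples, a mean FE of at least 10, other rules for shared regions, 1 fit over all mRNAs, a replicate block and leaving out each sample. Joining peaks across exon junctions and keeping peaks of an FDR under 100% were added after seeing the data.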

Additional observations from a re-analysis of the deposited data

How the results depend on the processing

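With 1 fit over all mRNAs counted for a genotype, 1453 mRNAs were called higher and 1780 lower in 5xFAD. Among them were 8 members higher and 21 lower and 18 partners higher and 29 lower. Any mRNA with peaks in 1 genotype alone entered this fit through that genotype, with FE 0 where no peak was listed. The filter thus favoured such calls, and they are no test of a difference. With only peaks of an FDR under 100%, chosen after seeing the data, 109 overlay mRNAs were called higher and 144 lower, the overlay members numbered 6, with 1 called higher and 1 lower, 1 partner was called higher and 3 lower, and 1 member region was shared. Shared member regions numbered 2 with identical ends and 4 with a peak in all 3 samples, a rule under which 1 member was called higher. Median centring gave 6 partners called higher. Peaks of FE at least 5 gave 1 partner called higher, and means per 5xFAD sample of 27.7 member peaks, 20.7 members and a median FE of 14.3. The sign of Dpysl2, near 0, turned with the highest FE (0.0687), the mean FE (0.28), median centring (0.69), peaks of FE at least 5 (0.068) and peaks of an FDR under 100% (0.22). The cause of these differences was not tested.

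Leaving out each sample in turn gave 1 to 3 members called higher and 7 to 11 lower, 2 to 4 partners higher and 6 to 8 lower, 13 to 16 overlay, 11 to 19 AD absent and 6 to 10 AD unique members, 5 to 7 shared regions and a log2 fold change of Dpysl2 from -0.24 to 0.20. Over all overlay mRNAs 188 to 231 were then called higher and 301 to 382 lower. Without a peak in 2 samples of both genotypes a member could not be fitted, as for Sema3g and Plxnb2 without 5xFAD replicate 2 or 3, Plxnd1 without WT replicate 2 or 3, and Nrp2 and Sema6b without WT replicate 1 or 3. Over the single overlay members and partners, 333 values under an alternative kept their direction and call, 25 lost the call, 7 gained it and 8, all of Dpysl2, turned. This tally leaves out genes that could not be fitted under an alternative. With peaks of an FDR under 100% the members left out were Dcc, Efna1, Efnb3, Plxna2, Plxnb2, Plxnb3, Plxnd1, Robo1, Sema3g and Sema7a. With peaks of FE at least 5 they were Robo1 and Sema7a. With a peak in all 3 samples they were Nrp2, Plxnb2, Plxnd1, Sema3g and Sema6b.

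Samples of the same replicate number did not deviate together (r = -4e-04, -0.0077 and -0.035), so the numbers were not taken as pairs. With the replicate block, 206 overlay mRNAs were called higher and 331 lower, with 2 members higher and 9 lower, as Plxna2 missed the threshold (limma, adjusted p = 0.0572), and 2 partners higher and 7 lower, without Ssh2 (0.103) and Mical3 (0.0782).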
